A study of Mus musculus with 4 samples.

Results

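The genes described here are the mouse translation factors that carry an initiation factor symbol (Eif followed by a digit) or an elongation factor symbol (Eef followed by a digit). They were taken from a whole-genome array as every gene with at least 1 probe set annotated to exactly 1 such symbol. The rule found 58 of 18193 genes and 155 of 34945 single-symbol probe sets, and each gene was represented by its brightest probe set. It used no difference between the groups. Of the 58 factors, 56 passed the filter on low signals and were tested among 14445 genes. The exon junction helicase gene Eif4a3 and the methyltransferase gene Eef2kmt did not pass it. Eif2s1, Eif4g1 and Eif4ebp3 had no single-symbol probe set and were not analysed here.

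RNA came from the mouse embryonic stem (ES) cell line CGR8. On 2 arrays the cells had leukemia inhibitory factor (LIF) in their medium at 1000 U/ml, and on the other 2 their medium lacked it, after 2 days in each case. Both groups were grown on gelatin with serum replacement in the medium, and 100 ng of total RNA was labelled per array. The study used 1 cell line, and the labels leave unsaid whether the 2 arrays of a group were separate cultures. The p-values therefore reflect array-to-array spread alone, and that spread could be technical. The question was how the RNA of these factors differed once LIF, the cytokine that keeps mouse ES cells undifferentiated, was withdrawn.

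Translation begins when eIF2, loaded with GTP and the initiator tRNA, joins the small ribosomal subunit with eIF1, eIF1A, eIF3 and eIF5. The eIF4 group recruits the mRNA through its cap, and the elongation factors eEF1 and eEF2 then bring aminoacyl-tRNA and move the ribosome along the message. Control acts mainly on proteins: kinases phosphorylate eIF2 and so block its recycling by eIF2B, and 4E-BP proteins hold the cap-binding eIF4E until mTOR phosphorylates them. ES cells are known for a low rate of protein synthesis, which rises as they differentiate. An array measures RNA, and none of these protein states were measured.

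LIF withdrawal was visible in Socs3 and Klf4, and the ES cell markers were present. The signal of Socs3, the feedback inhibitor of LIF signalling, was 4827 and 6198 with LIF and 360.0 and 261 without it, and it fell by 4.16 on the log2 scale (limma adjusted p = 0.00461). Klf4, a pluripotency factor, fell by 3.84 (limma adjusted p = 0.0101), while Pou5f1 had a change of 0.02. All 10 ES cell markers lay above the filter, and their summed signal was 118977 and 141423 with LIF and 66816 and 92716 without. Summed signals of 9 primitive endoderm markers, all above the filter, were 2668 and 6701 with LIF and 3378 and 13917 without. Of 7 fibroblast markers 6 passed the filter, without Lum, and the sum of all 7 was 664 and 338 with LIF and 935 and 505 without. Neuroectoderm markers other than Neurog2 (4 of 5) and blood markers other than Ptprc (2 of 3) passed it too. The sum of all 5 neuroectoderm markers was 2133 and 1315 with LIF and 2939 and 1510 without. That of all 3 blood markers was 196 and 134 with LIF and 209 and 154 without. The neuroectoderm sum mixes directions: on the log2 scale Tubb3 fell by 0.91 without LIF, while Sox1 rose by 1.31, Pax6 by 0.78 and Nes by 1.64. Neurog2 read 4.7 and 6.2 with LIF and 54.3 and 31.1 without. Of the tested neuroectoderm markers 0 passed a limma adjusted p of 0.05. The part of these cell types in the values below was not tested, and in bulk RNA fewer cells of a type and less RNA per cell cannot be told apart.

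The 2 arrays numbered 1 and the 2 numbered 2 differed in several control probe sets. The one at the 3' end of the 18S ribosomal RNA read 462 with LIF and 451 without on arrays 1, and 5150.4 and 2990.4 on arrays 2, and the other 2 for 18S were also higher on arrays 2. The one at the 5' end of beta-actin read 23922 and 20971 on arrays 1 and 11822 and 14214 on arrays 2. At the 3' end of beta-actin the signals were 31523 and 30277 on arrays 1 and 21600 and 25193.5 on arrays 2. Gapdh went the other way at its 5' end, with 30156 and 27618 on arrays 1 and 34338 and 36589 on arrays 2. Whether the RNA was broken was not tested. The middle DapX spike control read 1978 and 1130 on arrays 1 and 504 and 419 on arrays 2. The marker sums given above differed by number too. In both groups those of ES cell and primitive endoderm markers were higher on arrays 2. Those of fibroblast, neuroectoderm and blood markers were higher on arrays 1. The part of these differences in the factors' values was not tested. For that reason differences are also given within each number, as array 1 against array 1 and array 2 against array 2. Signals are MAS5 intensities, scaled by array, so a change in total RNA per cell would not show. Every change below is the log2 signal without LIF minus that with LIF.

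Translation factor RNA differed little between the groups. With limma and a Benjamini-Hochberg adjusted p of 0.05, 0 of 56 factors passed, where 0.145% of all tested genes did (0.0485% higher and 0.0969% lower without LIF). At an unadjusted p of 0.05 there were 5 factors (Eif1a, Eif1b, Eif2b4, Eif2s2 and Eif4g3), a share of 8.93% against 10.9% of all genes. The 3 lower ones were 5.36% against 3.73%, and the 2 higher ones 3.57% against 7.16%. Changes of at most 0.5 were found for 51 factors, or 91.1%, against 69.2% of all genes. Among genes with a mean signal of at least 1851 the shares were closer, 95.2% of 42 factors and 91.8% of 2563 other genes. That range has no upper bound, so the factors and the other genes in it need not be equally bright. Only Eif4e3 and Eif4g3 had a change of at least 1, which 11.5% of genes had. The median absolute change was 0.17 for the factors and 0.29 for all genes. Arrays of the same group also differed less for the factors, with a median absolute difference of 0.13 with LIF and 0.16 without, against 0.29 and 0.36 for all genes. The factors were bright, with a median log2 signal of 12.56 against 8.49.

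Most of the small differences pointed down. The change was below 0 for 40 of 56 factors, or 71.4%, against 40.6% of all genes (33 with quantile normalization and 52 with a common median per array), and its median was -0.10 against 0.09. The other 16 factors, 28.6% against 59.4%, were above 0. The median of the factors was -0.04 with quantile normalization (0.02 for all genes), -0.04 with the mean of each gene's probe sets and -0.04 with the brightest plain probe set, and in the last 2 settings 32 of 56 and 26 of 44 factors were below 0. Of 37 factors with several tested probe sets, 21 had all of them on the same side of 0. Within the numbers the median of the factors was -0.12 and -0.10. Both arrays without LIF lay below both arrays with LIF for 18 factors (32.1%, against 15.2% of genes) and above both for 6 factors (10.7%, against 27.3%). Bright genes in general leaned the same way: among the other 2563 tested genes with a mean signal of at least 1851, the median change was -0.06 and 61.8% were below 0. The 42 factors in that range had a median of -0.14, and 35 of them were below 0. With quantile normalization the medians in that range were -0.06 for the factors and -0.01 for the other genes.

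**Figure D1:**
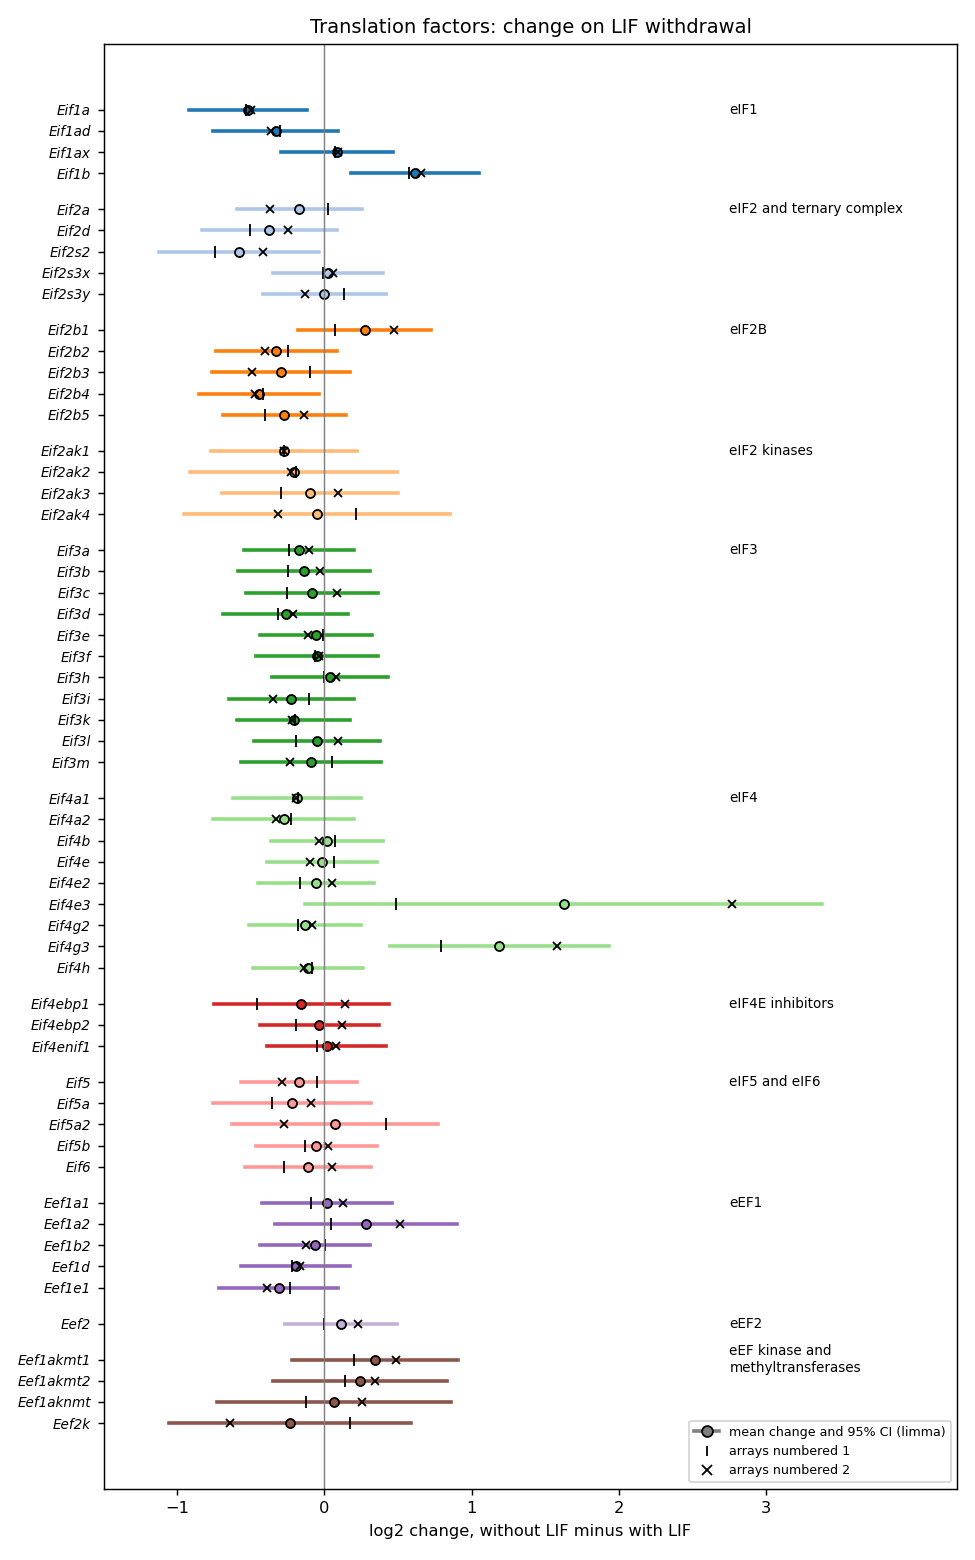
Change in log2 signal (without LIF minus with LIF) of the 56 tested translation factors, grouped by role. Dots are the mean change with its 95% confidence interval from limma, vertical ticks the difference between the arrays numbered 1 and crosses that between the arrays numbered 2. Nearly all factors lie within 0.5 of 0, with Eif2s2 lowest and Eif4g3 and Eif4e3 highest.

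With the array number as a term in the fit, 4 factors passed an adjusted p of 0.05: Eif1b and Eif4g3 were higher and Eif1a and Eif2s2 lower without LIF. That is 7.14% of the factors, where 6.75% of all genes passed the same fit, 4.13% as higher and 2.62% as lower. With quantile normalization added, Eif2s2 and Eif4g3 passed, against 4.78% of genes. The labels do not state what the numbers stand for, and with 2 pairs of arrays the fit leaves 1 residual degree of freedom. The array numbered 2 was the higher one in both groups for 28 factors and the lower one in both for 13.

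The bases before the transcript start are shown for the 3 of these 4 genes that the RefSeq promoter table holds, as 250 bases upstream of the first start in genome build GRCm38.p6, read 5' to 3' on the gene's strand. Capitals mark CACGTG, the E-box that MYC and related factors bind, which reads the same on both strands.
Eif2s2, chr2:154892907-154893156, minus strand: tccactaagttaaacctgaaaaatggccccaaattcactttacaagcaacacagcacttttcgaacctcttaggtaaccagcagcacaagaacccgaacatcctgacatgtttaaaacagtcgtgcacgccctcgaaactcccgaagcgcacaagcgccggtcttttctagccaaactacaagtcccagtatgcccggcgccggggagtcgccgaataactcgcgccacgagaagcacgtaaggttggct
Eif1b, chr9:120492356-120492605, plus strand: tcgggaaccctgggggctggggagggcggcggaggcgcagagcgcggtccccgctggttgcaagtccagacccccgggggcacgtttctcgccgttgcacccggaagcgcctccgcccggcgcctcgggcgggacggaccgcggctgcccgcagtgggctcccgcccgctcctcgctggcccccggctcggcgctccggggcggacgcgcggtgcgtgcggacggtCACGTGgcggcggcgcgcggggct
Eif4g3, chr4:137993205-137993454, plus strand: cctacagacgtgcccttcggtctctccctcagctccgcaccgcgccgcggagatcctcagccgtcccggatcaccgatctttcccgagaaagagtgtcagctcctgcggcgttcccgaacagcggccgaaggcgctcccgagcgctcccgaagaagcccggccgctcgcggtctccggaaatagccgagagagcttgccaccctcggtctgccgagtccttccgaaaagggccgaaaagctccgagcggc
The Eif1b window holds 1 E-box, which starts 24 bases before the transcript start, and those of Eif2s2 and Eif4g3 hold none. None of the 3 windows holds TTCNNNGAA, the core of a STAT site, also the same on both strands. Of the 58 factors 47 matched the table, 45 of them tested. An E-box stood in the upstream window of 11 of the 45, or 24.4%, against 6.86% of 27025 genes. These were Eef1aknmt, Eef2, Eef2k, Eif1b, Eif3f, Eif3k, Eif4a1, Eif4e, Eif4h, Eif5a and Eif5a2. The STAT core stood in 6 of 45 genes, or 13.3%, against 8.13%, in Eef1e1, Eef2k, Eif2ak2, Eif2ak3, Eif3c and Eif4e. The 27025 genes include genes that were not tested on the array, and the windows were not matched for base content. The match describes these letters only, and no binding was measured.

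Among the 4 genes grouped as eIF1 by their symbols, Eif1a read lower and Eif1b higher without LIF. The group median was -0.12 (0.18 with the mean of each gene's probe sets). Eif1a, which encodes eIF1A, the protein in the decoding site of the scanning ribosome, read 6829 and 7562 with LIF and 4710 and 5353 without. Both arrays without LIF were lower, and the difference was -0.54 within number 1 and -0.50 within number 2. The change was -0.52 (SE 0.17, 95% interval -0.92 to -0.12), a 1.43-fold difference, with an adjusted p of 0.329 and of 0.0241 with the number in the fit. The second Eif1a probe set read 3363 and 3488 with LIF and 2709 and 3352 without, again lower on both arrays but by less, at -0.18.

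Eif1ax, its X-linked paralog, read 7011 and 7458 with LIF and 7358 and 7964 without, a change of 0.08 (95% interval -0.30 to 0.46), so that its groups overlapped. All 3 of its probe sets were above 0, from 0.08 to 0.75. Probe sets of the 2 near-identical genes may share transcripts, and the same holds for Eif2s3x and Eif2s3y, Eif4a1 and Eif4a2, and Eef1a1 and Eef1a2. Eif1b, a close relative of eIF1 that guards the choice of start codon, read 1016 and 1038 with LIF and 1515 and 1637 without. Its arrays of a group lay close together and the groups were apart. The change was 0.62 (SE 0.18, 95% interval 0.18 to 1.05), 0.58 and 0.66 within the numbers, with an adjusted p of 0.279 and of 0.0344 with the number in the fit. Eif1ad, which encodes an eIF1A-like protein, read 2028 and 2287 with LIF and 1644 and 1780 without, a change of -0.33 (adjusted p = 0.561) without overlap. Its second probe set went the other way, 643 and 550.2 with LIF and 731 and 700.4 without (0.27), and the mean of both was -0.03.

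Of the eIF2 trimer the beta and gamma subunits were measured, and the difference between them was not tested. Eif2s2 encodes eIF2 beta, which contacts eIF5 and eIF2B. Its brightest probe set read 24654 and 29373 with LIF and 14697 and 22005 without, so both arrays without LIF were lower. The difference was -0.75 within number 1 and -0.42 within number 2. The mean change was -0.58 (SE 0.23, 95% interval -1.13 to -0.04), 1.5-fold, the lowest of the 56 factors, with an adjusted p of 0.423 and of 0.0127 with the number in the fit. The value rested on which array without LIF was used: leaving out array 1 of that group gave -0.29 (adjusted p = 0.642), and leaving out array 2 gave -0.87 (adjusted p = 0.0198, where 3.43% of genes passed). Each of these fits leaves 1 array without LIF, and the lone array is assumed to vary like the 2 with LIF. Leaving out an array with LIF gave -0.71 and -0.46, neither of which passed.

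All 6 Eif2s2 probe sets gave a change below 0, from -1.31 to -0.58, and in 5 of them the groups did not overlap. The probe set with the smallest p read 23628 and 25970 with LIF and 12636 and 13587 without, a change of -0.92. A further one read 16875 and 16567 with LIF and 8332 and 9731 without (-0.89). Both put the arrays without LIF well below those with it, and further apart than the brightest probe set did. The next read 8507 and 11002 with LIF and 3204 and 5257 without (-1.24), and another 12748 and 10496 against 6250 and 4528 (-1.12). The dim sixth read 536 and 146 with LIF and 248 and 51.7 without, where the numbers differed more than the groups. With every probe set fitted on its own, 0 of 31526 passed (2152, or 6.83%, at an unadjusted p of 0.05), and adjusted p for those of Eif2s2 was 0.279 to 0.851. With the number in that fit all 6 passed, with adjusted p from 5.6e-05 to 0.0187, where 4.97% of probe sets passed. Of the 138 tested probe sets of the factors, 9 passed that fit, these 6 included. The 6 share their RNA and are not replicates.

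**Figure D2:**
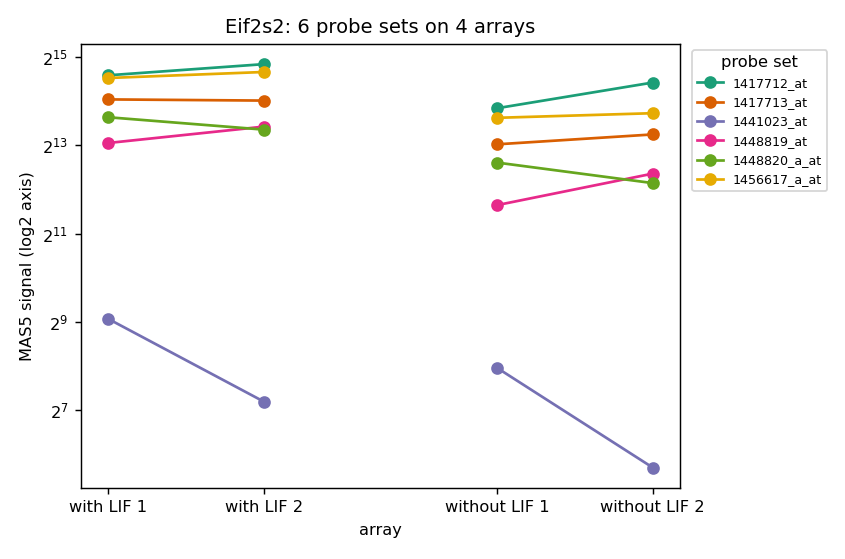
Signal of the 6 Eif2s2 probe sets on each of the 4 arrays (log axis), with lines joining the arrays of the same group. In 5 probe sets both arrays without LIF lie below both arrays with LIF, and in the dimmest the groups overlap.

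The gamma subunit, which binds GTP and the initiator tRNA, had changes near 0 on the brightest probe sets. Eif2s3x read 6697 and 6633 with LIF and 6649 and 6901 without, a change of 0.02 (95% interval -0.35 to 0.40). Eif2s3y, its Y-linked copy, read 3266 and 3914 with LIF and 3574 and 3569 without (-0.00, 95% interval -0.42 to 0.42). The groups overlapped for both genes on these probe sets. Of the 3 Eif2s3x probe sets 2 were below 0, at -0.33 with overlap and at -0.07 without overlap. A second Eif2s3y probe set was higher without overlap (1.03) but dim, with signals of 18.1 to 53.4. Eif2d, which encodes a factor that delivers tRNA without GTP and acts in recycling, read 4790 and 5239 with LIF and 3381 and 4421 without, both lower (-0.37, adjusted p = 0.547). Of its 5 tested probe sets 4 were below 0, 3 of them without overlap. The 1 above 0 was dim, with signals of 15 to 50.6. Eif2a, an alternative carrier of initiator tRNA, had a change of -0.17.

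The subunits of eIF2B, the exchange factor that returns eIF2 to its GTP form, were lower without LIF in 4 of 5 genes without overlap, and the remaining gene was higher without overlap, where 15.2% and 27.3% of all genes were. Among the other genes with a mean signal of at least 1851, 24.8% were lower without overlap. The median change of the 5 subunit genes was -0.30, and 0 of 5 passed. Eif2b4 (delta subunit) read 2360 and 2320 with LIF and 1768 and 1670 without, a change of -0.45 (SE 0.17, 95% interval -0.85 to -0.04) that was -0.42 and -0.47 within the numbers (adjusted p = 0.411, or 0.0862 with the number in the fit). Eif2b2 (beta) read 2651 and 2983 with LIF and 2230 and 2256 without (-0.33, adjusted p = 0.555). Arrays without LIF were thus the lower ones in both genes on these probe sets. Of the 3 Eif2b2 probe sets all were below 0, from -0.33 to -0.07, but only 1 was without overlap. Eif2b3 (gamma) and Eif2b5 (epsilon, the catalytic subunit) had changes of -0.30 and -0.27. A second Eif2b5 probe set went the other way, at 0.56, but it was dim, with signals of 34.9 to 55. Eif2b1 (alpha), part of the regulatory core that senses phosphorylated eIF2, read 1637 and 1392 with LIF and 1722 and 1934 without (0.27, adjusted p = 0.662), with 0.07 within number 1 and 0.47 within number 2, and a change of -0.02 with a common median per array.

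The 4 kinases that phosphorylate eIF2 had changes between -0.28 and -0.05, and 0 of 4 passed. Eif2ak1 (HRI, the heme-regulated kinase) read 681 and 718 with LIF and 562 and 594 without, lower on both arrays (-0.28, adjusted p = 0.692). Of its 4 tested probe sets 3 were below 0 and 1 was higher without overlap (0.21). The mean of all 5 probe sets was 0.16, but it included 1 below the filter, with signals of 4.6 to 25 and a change of 1.21. Eif2ak2 (PKR, which senses double-stranded RNA) read 289 and 232 with LIF and 253 and 199 without (-0.21). In Eif2ak2 the groups overlapped, as they did in the next pair. Eif2ak3 (PERK, which senses unfolded protein in the endoplasmic reticulum) read 962 and 1109 with LIF and 785 and 1185 without (-0.10). Eif2ak4 (GCN2, which senses amino acid shortage) read 402 and 292 with LIF and 466 and 235 without (-0.05). In these last 2 kinases the arrays without LIF were the lowest and the highest of the 4.

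The eIF3 scaffold, which holds the small subunit and the mRNA together, differed little. Its 11 subunits had changes from -0.26 (Eif3d) to 0.04 (Eif3h), with a median of -0.09 (-0.02 with quantile normalization) and 10 below 0, as were 61.8% of the other bright genes. The groups did not overlap in 4 subunits, Eif3a, Eif3d, Eif3i and Eif3k, all lower without LIF, as were 15.2% of all genes and 24.8% of the other bright genes. Eif3d, a subunit at the edge of the complex, read 10096 and 8331 with LIF and 8114 and 7186 without (adjusted p = 0.648). Eif3h read 9824 and 10572 with LIF and 9799 and 11182 without, in full overlap. Eif3a, the core subunit, was below 0 on all 4 of its probe sets, from -0.43 to -0.17, and 3 of these did not overlap.

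In the cap-binding group the main subunits stayed close to 0, and the 2 factors with the largest changes had lower signals than these. Eif4e, which encodes the cap-binding protein, read 8882 and 9576 with LIF and 9291 and 8933 without, a change of -0.02 (95% interval -0.39 to 0.36). The helicase gene Eif4a1 read 28724 and 34537 with LIF and 25398 and 30211 without (-0.19). Its paralog Eif4a2 read 14503 and 19069 with LIF and 12385 and 15197 without (-0.28). Both helicases were lower within each number, while the groups overlapped. Eif4g2, a scaffold that works without eIF4E, read 23575 and 24729 with LIF and 20836 and 23310 without (-0.13), just short of overlap. Of its 5 probe sets 2 bright ones were above 0, at 0.11 each, with overlap.

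Eif4g3, which encodes eIF4GII, a scaffold that joins eIF4E to eIF4A and eIF3, read 388 and 221 with LIF and 674 and 662 without. The arrays without LIF agreed closely and both were higher. Its signals lay above the array medians of 59.6 to 95.5. The change was 1.19 (SE 0.31, 95% interval 0.45 to 1.93), 2.28-fold, and 0.79 and 1.58 within the numbers, with an adjusted p of 0.222 and of 0.0125 with the number in the fit. Its other 3 probe sets were dimmer, with signals from 1.4 to 205, and their groups overlapped. Eif4e3, a distant relative of eIF4E, read 100.4 and 20.6 with LIF and 141 and 140.1 without. Its low value of 20.6 lay below the filter signal of 22.9. The change was 1.63 (SE 0.74, 95% interval -0.13 to 3.38, adjusted p = 0.49), but 0.49 within number 1 and 2.77 within number 2. A second probe set read 51.3 and 43.7 with LIF and 244 and 49.3 without, high on 1 array. Eif4a3 was below the filter, with signals of 32.8 and 5.6 with LIF and 53.4 and 7.2 without.

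The eIF4E inhibitors varied more between arrays of a group than between groups. Eif4ebp1 (4E-BP1) read 13742 and 15030 with LIF and 10010 and 16595 without, so that the arrays without LIF were both the lowest and the highest. Its change was -0.16 (95% interval -0.75 to 0.44), with -0.46 within number 1 and 0.14 within number 2. Eif4ebp2 (4E-BP2) read 4132 and 3780 with LIF and 3622 and 4115 without (-0.03), also with overlap. Eif4enif1, which encodes the transporter of eIF4E into the nucleus, had a change of 0.01.

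The genes grouped as eIF5 and eIF6 by their symbols gave changes from -0.22 (Eif5a) to 0.07 (Eif5a2). Eif5, the GTPase activator of eIF2, read 8173 and 8292 with LIF and 7874 and 6777 without (-0.17, adjusted p = 0.768), lower without overlap and below 0 on all 5 probe sets. Eif5a, whose protein carries the hypusine residue and helps ribosomes past prolines, read 29449 and 35933 with LIF and 23039 and 33790 without (-0.22). Its paralog Eif5a2 read 341 and 354 with LIF and 456 and 293 without (0.07). Neither eIF5A gene separated the groups. Eif6, which keeps the large subunit from joining too early, read 6289 and 6336 with LIF and 5210 and 6567 without (-0.11). Its second, dimmer probe set was higher without overlap (0.36), the mean of both was 0.12, and without array 1 of the group without LIF the change was 0.06. Eif5b, the GTPase of subunit joining, had -0.05.

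The eEF1 and eEF2 genes had changes from -0.31 (Eef1e1) to 0.28 (Eef1a2). Eef1a1, which encodes the carrier of aminoacyl-tRNA, read 34419 and 37971 with LIF and 32370 and 41484 without, a change of 0.02 (95% interval -0.42 to 0.46). Eef1a2, its muscle and neuron paralog, read 382 and 384 with LIF and 394 and 549.5 without: both arrays without LIF were higher, 1 of them by little (0.28, adjusted p = 0.759). Eef1b2, a subunit of the exchange factor for eEF1A, read 23398 and 25403 with LIF and 23435 and 23271 without (-0.06). Eef1d, another exchange subunit, and Eef1e1, a scaffold of the aminoacyl-tRNA synthetase complex, were lower without overlap, at -0.20 and -0.31. All 3 tested Eef1d probe sets were lower without overlap, from -0.31 to -0.16. Eef2, the translocase gene, read 16534 and 15366 with LIF and 16471 and 17984 without (0.11, 95% interval -0.27 to 0.49). With a common median per array Eef1a1, Eef1a2 and Eef2 were below 0.

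Eef2k, the kinase that inhibits eEF2, read 276 and 271 with LIF and 311 and 174 without (-0.23), with the arrays without LIF on either side of those with it. All 3 of its probe sets were below 0, and 2 dimmer ones were lower without overlap, at -0.33 and -1.72. The second of these read 55.3 and 33.9 with LIF and 22.1 and 7.8 without. Eef1akmt1, a lysine methyltransferase of eEF1A, read 1323 and 1592 with LIF and 1522 and 2225 without (0.34, adjusted p = 0.662), higher within each number but in overlap. Eef1akmt2 (0.24) and Eef1aknmt (0.06), 2 further methyltransferase genes, were above 0 too, and the median of Eef2k and the 3 tested methyltransferase genes was 0.15, but -0.14 with a common median per array. Eef2kmt was below the filter, with signals of 15.7 and 18.6 with LIF and 11.8 and 20.5 without.

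**Figure D3:**
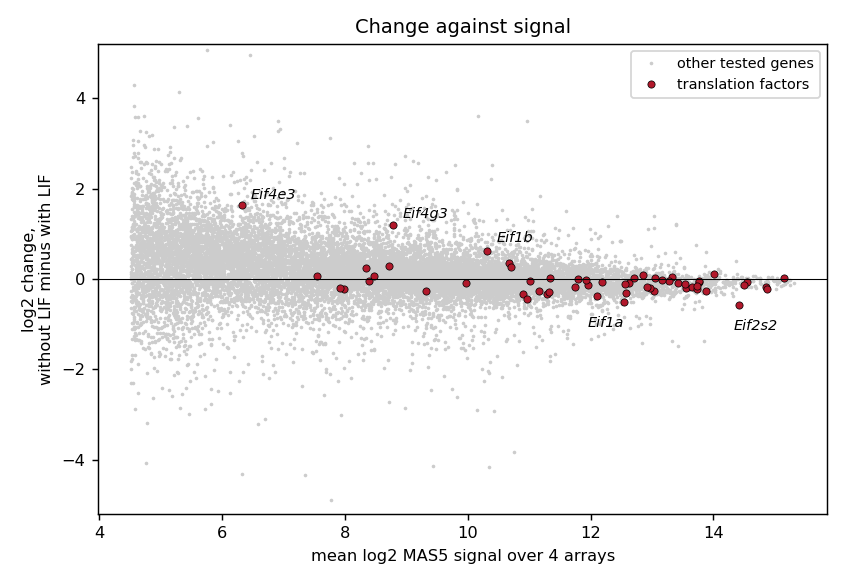
Change in log2 signal (without LIF minus with LIF) against mean log2 signal for all 14445 tested genes and the 56 tested translation factors. The factors sit mostly at high signal, with a median of 12.56, and close to 0. The 2 with changes of at least 1 lie below that median.

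Genes that act with these factors gave 0 calls in 7 lists, and 1 with the number in the fit, where 0.145% and 6.75% of all genes passed. In the release, recycling and scanning list 0 of 9 passed, with a median of -0.08. Its smallest p above 0 was that of Hbs1l, which rescues stalled ribosomes (0.15), and below 0 that of Mcts2 (-0.30). Of 12 poly(A)-binding proteins and eIF4 regulators 0 passed, with a median of 0.03. Pdcd4, an inhibitor of eIF4A, had 0.31 and Paip2b, a repressor of poly(A)-binding protein, had -0.24. In the mTOR arm 0 of 11 passed (median 0.03), with Rictor, a subunit of mTORC2, at 0.26 and the mTOR inhibitor Deptor at -0.24. Of the 9 hypusine and diphthamide genes 0 passed (median -0.07). There Dohh, which completes hypusine on eIF5A, had -0.35 and Dph2, of the diphthamide pathway on eEF2, had 0.09. All 9 mitochondrial factors were below 0 with a median of -0.10, 0 of 9 passed, and Tsfm, the mitochondrial exchange factor, had -0.36. In the selenocysteine list 0 of 3 passed (median -0.12), with Eefsec at -0.20 and Secisbp2l at 0.16.

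The remaining list holds genes of the eIF2 phosphatase (Ppp1ca, Ppp1r15a, Ppp1r15b), the GCN2 regulators Gcn1 and Impact, and genes of the integrated stress response, which is switched on when eIF2 is phosphorylated. Of 15 genes 0 passed, with a median change of 0.12, and 1 passed with the number in the fit, against 6.75% of all genes. That gene was Ddit4, an inhibitor of mTORC1, which read 1146 and 1056 with LIF and 1624 and 3337 without (1.08, adjusted p = 0.292, or 0.0177 with the number in the fit). Both arrays without LIF were higher, array 2 by more. The smallest p below 0 was that of the cystine transporter gene Slc7a11 (-0.78), which was dim.

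The 15 genes of this list differed more between the 2 arrays without LIF than between those with LIF, with a median absolute difference of 1.04 against 0.18. Signals were highest on array 2 without LIF for 11 of 15 genes, or 73.3%, against 26.8% of all tested genes, and lowest on array 1 without LIF for 9 of 15, or 60%, against 24.1%. Atf4, the transcription factor of this response, read 1789 and 2437 with LIF and 1402 and 4296 without. Chac1, a target of it that degrades glutathione, read 234 and 252 with LIF and 204 and 1025 without. Both were lowest on array 1 and highest on array 2 without LIF. The pseudokinase gene Trib3 read 347 and 333 with LIF and 159 and 705 without. The amino acid synthesis genes Asns (5586 and 6349 with LIF, 4238 and 8729 without) and Psat1 (5266 and 5845, then 3520 and 8602) had the same order at the extremes. These 5 genes were picked after their values were seen. Among the translation factors 27 of 56 (48.2%) were lowest on array 1 without LIF and 15 (26.8%) highest on array 2. The part of this array difference in the factors' values was not tested.

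**Figure D4:**
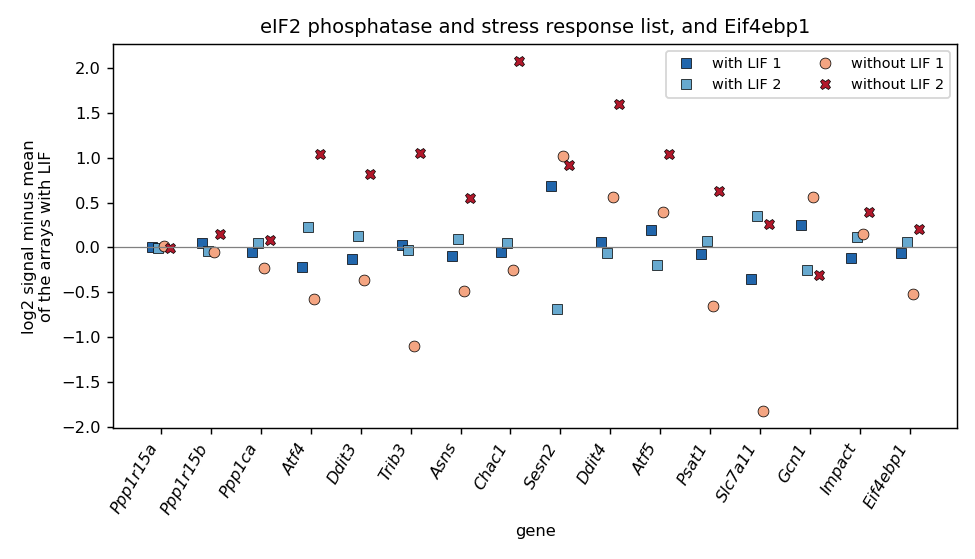
Log2 signal on each of the 4 arrays, minus the mean of the arrays with LIF, of the 15 genes of the eIF2 phosphatase and stress response list and of Eif4ebp1. Array 2 without LIF is the highest for 11 of the 15 listed genes and array 1 without LIF the lowest for 9.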

How the data were processed

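The deposited table held MAS5 signal intensities on a linear scale for 45101 probe sets of a whole-genome mouse array, as the values show and per the submitters' processing notes. The MAS5 version is not given in the sources used here. The authors' values scaled each array to a trimmed mean (without the lowest and highest 2%) of 500.003 to 500.004, and array medians were 59.6 to 95.5. Scaling of that kind does not align dim signals. Precision is limited by the number of arrays, 2 per group.

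Control probe sets (64) and those with several (932) or no (9160) symbols were left out. Signals were taken as log2, with 1 value at or below 0 set to the smallest positive signal of 0.1. Each gene was represented by its brightest probe set, and genes above the 30th percentile of mean log2 signal (signal 22.9) were tested. The test was limma 3.58.1 (lmFit, eBayes with a trend) in R 4.3.3, group as the only term, Benjamini-Hochberg adjusted p of 0.05 over all 14445 genes. Its estimates were checked on simulated independent values without an effect of the array number. That check does not cover how the adjusted p behaves with such an effect. No sample of the table was left out.

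Alternatives were other normalizations, filters, a pseudocount, eBayes settings, probe set choices, the array number as a block, and each array left out. Fits of every probe set were added after seeing the data. Members and lists were chosen with earlier results of these data known. Named in full were the 6 factors with the smallest p in each direction and a list of core factors, and of each partner list the smallest p in each direction. Promoter windows came from RefSeq (GRCm38.p6), with 2 motifs searched.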

Additional observations from a re-analysis of the deposited data

How the results depend on the processing

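The number of factors past the threshold was 0 with the group as the only term, and also under quantile normalization, a common median, other filters, a pseudocount, other eBayes settings, other probe set choices and an adjusted p of 0.1. It was 4 with the array number as a block, 2 with the block and quantile normalization (Eif2s2 and Eif4g3), and 0 to 1 with 1 array left out. The 1 was Eif2s2 without array 2 of the group without LIF, where the lone array is assumed to vary like the others. Over all genes the count was 21 in the main fit, 0 without the trend (1589 at an unadjusted p of 0.05), 7 to 496 with 1 array left out, 10 with quantile normalization, 12 with the mean of the probe sets, 14 with the brightest plain probe set, 41 with the filter at the 50th percentile, 51 with a pseudocount of 14.3, 52 with robust estimation, 131 with a common median, 140 at an adjusted p of 0.1, 690 with block and quantile normalization, and 975 with the block. The share of calls that were higher was 33.3% in the main fit, 61.1% with the block, 55.7% with block and quantile normalization, 46.3% with the filter at the 50th percentile, 49% with the pseudocount, 50% with robust estimation and 52.1% at an adjusted p of 0.1.

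The replicate numbers gave deviations from the group means with a correlation of 0.29 over all genes and 0.30 over the factors. With 2 pairs this does not show that the numbers pair the arrays, and a call gained with the block is not a stronger effect.

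The median change was -0.10. A common median moved the median of all genes by -0.29 and gave -0.39 for the factors, -0.42 for eIF1, -0.47 for eIF2, -0.59 for eIF2B, -0.45 for the eIF2 kinases, -0.38 for eIF3, -0.35 for eIF4, -0.33 for the eIF4E inhibitors, -0.40 for eIF5 and eIF6, -0.36 for eEF1, -0.18 for eEF2 and -0.14 for the eEF kinase and methyltransferases. Quantile normalization, with or without the block, gave 0.0054 for eIF4, 0.0106 for eEF1 and 0.21 for eEF2. The mean of the probe sets gave 0.18 for eIF1, -0.17 for eIF2B and 0.0196 for eEF1. The brightest plain probe set gave 0.37 for eIF1, 0.0169 for eIF4 and 0.0196 for eEF1. The cause of these differences was not tested. With 1 array left out the median was -0.13 to -0.05 for all factors, -0.19 to -0.06 for eIF1, -0.24 to -0.05 for eIF2, -0.41 to -0.24 for eIF2B, -0.31 to -0.13 for the eIF2 kinases, -0.18 to -0.08 for eIF3, -0.07 to -0.05 for eIF4, -0.13 to 0.0851 for the eIF4E inhibitors, -0.12 to -0.05 for eIF5 and eIF6, -0.16 to -0.00276 for eEF1, 0.05 to 0.17 for eEF2 and -0.03 to 0.26 for the eEF kinase and methyltransferases.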
